A study of Rattus norvegicus with 63 samples.

Results

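Msx1 encodes a homeobox transcription factor, and its signal was read on 63 expression arrays of rat brain. The array design gives the symbol Msx1 alone to 1 of its 31099 probe sets, so Msx1 is 1 of the 14218 genes so named, and every Msx1 value comes from 1 probe set that no other probe set checks. Msx1 was selected on its measured signals on these arrays, with earlier results known, so its own levels and differences are given as estimates with their errors and without p-values.

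MSX proteins are DNA-binding repressors that act downstream of bone morphogenetic proteins (BMPs). In the embryo they help to pattern the dorsal midline of the neural tube, the limbs, the teeth and the skull. BMP ligands bind paired receptor kinases, the receptors phosphorylate SMAD proteins, and SMADs switch on targets that include the Id genes and Msx genes, while secreted antagonists such as noggin hold the ligands back.

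The rats were male Wistar animals, 4 weeks old on arrival, that were injected intraperitoneally 2 times a day for 7 days from the age of 6 weeks. In the drug-naive cohort (cohort 1) these injections were saline. In the drug-pretreated cohort (cohort 2) they were amphetamine, methamphetamine or methylphenidate at 5 mg/kg, and the saline group profiled with that cohort received saline. All 3 drugs are psychostimulants that raise synaptic dopamine. Each rat was then tested for conditioned place preference and for intravenous self-administration of the same agent. Naive rats were conditioned with amphetamine or methamphetamine at 1.25 or 5 mg/kg or with methylphenidate at 5 mg/kg, and pretreated rats were conditioned with their own drug at 5 mg/kg. Infusions delivered 0.1 mg/kg of amphetamine or methamphetamine, 0.25 mg of methylphenidate in 0.1 ml, or 0.1 ml of saline. Rats with the most robust self-administration were chosen, and brains were taken a day after the last session, so the stimulant groups are selected animals. Both saline groups thus carry the same labelled treatment and differ by cohort. The tissue was the striatum (rostral caudate putamen with the nucleus accumbens) or the dissected prefrontal cortex. There were 20 striatal and 19 cortical arrays of naive rats and 12 of each region of pretreated rats, with 5 naive saline arrays per region, 2 naive methamphetamine 1.25 mg/kg arrays in cortex, and 3 arrays in every other group. Pools of RNA are mentioned in the labels although the numbers of rats and arrays nearly match, so an array may or may not be 1 animal, and errors below measure the spread between arrays.

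Signals are MAS5 intensities, a linear brightness that the software scales to a common level per array, and every array had a trimmed mean between 500.1 and 500.2. Striatal and cortical arrays separated by region markers: in naive saline rats the dopamine receptor genes Drd1 and Drd2 were higher in striatum by 3.75 ± 0.29 and 4.69 ± 0.38 on the log2 scale (limma adjusted p = 6.27e-15 and 3.62e-14). The cortical genes Slc17a7 and Neurod6 were lower there by -3.54 ± 0.40 and -3.58 ± 0.36 (limma adjusted p = 2.48e-10 and 1.4e-11). The errors are standard errors (SE). Within the striatal arrays, replicate 1 of naive rats given methamphetamine at 1.25 mg/kg carried a cortical profile: its striatal minus cortical marker score was -0.632, against 3.58 to 6 in the other striatal arrays and -1.39 to 0.327 in cortex. The naive striatal values that it moved most are also given without it. The labels of naive saline striatal replicate 1 conflict, as its title and tissue say striatum and its description reads as cortex. It was kept as striatum, and its markers were striatal, with Drd2 at 11.92 and Slc17a7 at 7.08 (log2). The spiked-in bacterial control BioB split the arrays into a set with log2 signals from 9.01 to 10.6, which holds 23 naive arrays and every array of the pretreated cohort, and a set of 16 naive arrays from 5.96 to 6.68. The second set holds naive saline replicates 4 and 5, naive amphetamine 5 mg/kg and naive methylphenidate 5 mg/kg in both regions. The cohorts were separate sets of rats with their own arrays, so an effect of pretreatment cannot be told apart from other differences between those sets.

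The region upstream of the Msx1 start is shown because it is the gene's own regulatory sequence and lets its letters be compared with those of other rat promoters. It is the 250 bases before the RefSeq start of Msx1 on rat assembly GRCr8, chr14:77185552-77185801, plus strand, 5′ to 3′. The capitals mark CCAAT-box letters, read as CCAAT on the printed strand and as ATTGG where the box lies on the other strand.
Msx1: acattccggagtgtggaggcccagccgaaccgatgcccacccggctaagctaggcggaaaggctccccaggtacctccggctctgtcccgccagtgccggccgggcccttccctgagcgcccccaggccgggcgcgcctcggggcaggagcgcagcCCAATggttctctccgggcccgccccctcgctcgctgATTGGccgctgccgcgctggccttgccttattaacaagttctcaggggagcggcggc
The window has a GC content of 71.2%, above that of 93.1% of 33469 rat promoter windows of the same length, whose median is 51.2%. A CCAAT box starts 94 bases upstream of the start and a second, on the other strand, 57 bases upstream. A GC box, GGGCGG, lies 75 bases upstream on the other strand, between the CCAAT boxes. CCAAT is present on either strand in 34.0% of the windows and GGGCGG in 30.5%, so both motifs are common. The homeodomain letters TAATTG (7.31% of windows), the GC-rich SMAD letters GGCGCC (8.69%), the FOXJ1 letters GTAAACA (3.21%) and the RFX X-box letters GTTGCC (9.89%) are not in this window on either strand. These matches describe letters and not bound sites.

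Msx1 was higher in striatum than in cortex in both saline groups, by a larger difference in the naive cohort. In naive saline rats the striatal intensities were 405, 432, 314, 427 and 345, and the cortical ones were 124, 171, 133, 136 and 129. The lowest striatal array was thus above the highest cortical array. The difference was 1.47 ± 0.17 on the log2 scale (95% interval 1.13 to 1.82), or 2.78-fold. It was 1.43 within the array set with the higher BioB signal and 1.54 within the other. In the saline rats of the pretreated cohort the striatal intensities were 223, 239 and 214 and the cortical ones 179, 166 and 123, so again no array overlapped. The difference there was 0.55 ± 0.22 (95% interval 0.10 to 0.99), or 1.46-fold. Between these saline groups, 40.4% of the 8530 genes tested in both regions differed between striatum and cortex in the naive cohort at an adjusted p under 0.05, and 27% in the pretreated cohort, so a regional difference as such is common on these arrays. In tissue pieces, fewer cells of a type and less RNA per cell cannot be told apart.

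**Figure D1:**
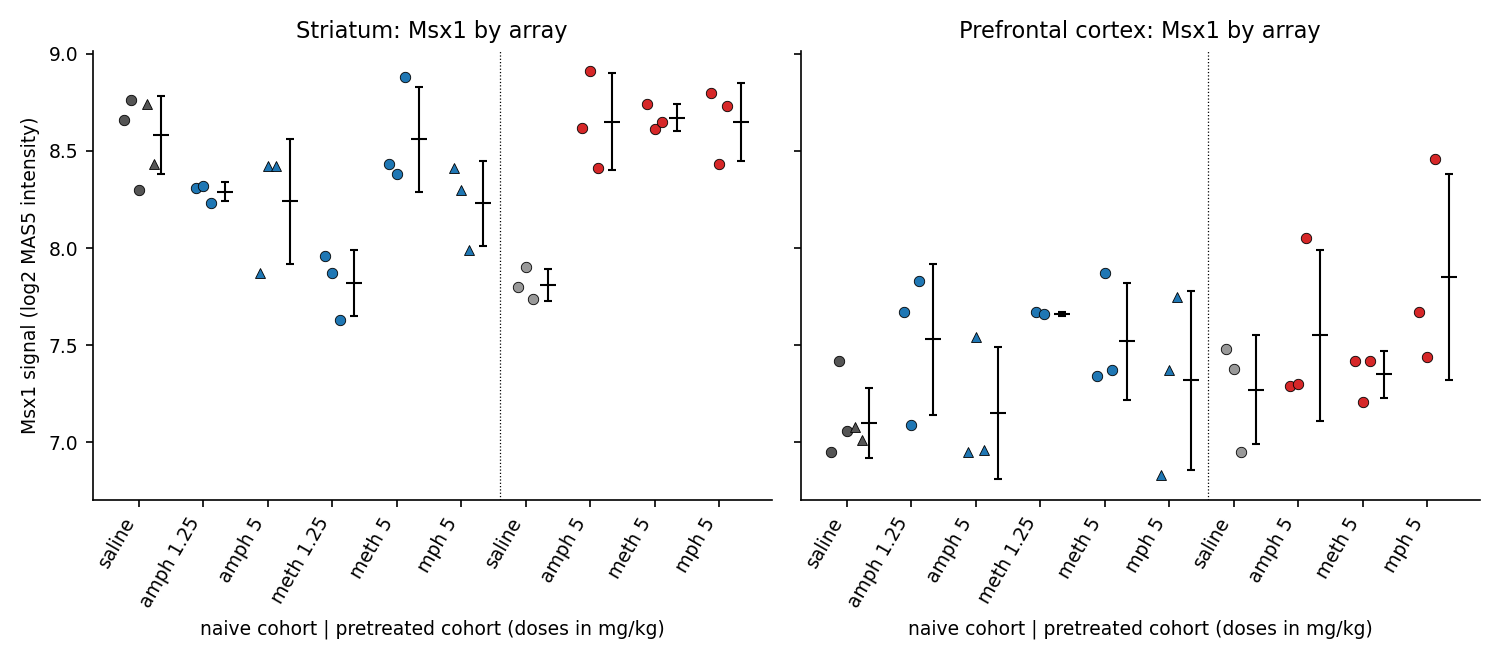
Msx1 signal (log2 MAS5 intensity, vertical axis) on every array by group (horizontal axis; amph, amphetamine; meth, methamphetamine; mph, methylphenidate; doses in mg/kg). Points are arrays (circles, higher BioB set; triangles, lower BioB set) and bars are the mean ± SD. In striatum, saline is near the top of the naive cohort at 8.58 and at the bottom of the pretreated cohort at 7.81.

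In the striatum of the pretreated cohort, Msx1 was higher after each stimulant than after saline, by nearly the same amount. The 3 saline arrays read 223, 239 and 214. Amphetamine arrays read 395, 480 and 341, methamphetamine arrays 428, 391 and 401, and methylphenidate arrays 445, 344 and 426. All 9 stimulant arrays lay above the highest saline array, and the ranges of the 3 drugs overlapped. The mean of the stimulant groups was 8.66 against 7.81 for saline, a difference of 0.84 ± 0.14 on the log2 scale (95% interval 0.56 to 1.12), or 1.79-fold. For single drugs the difference from saline was 0.83 for amphetamine, 0.85 for methamphetamine and 0.84 for methylphenidate, each ± 0.17. Amphetamine and methamphetamine, which differ by an N-methyl group, differed by 0.02 ± 0.17 (methamphetamine minus amphetamine, 95% interval -0.32 to 0.36). Methylphenidate, whose amine lies in a piperidine ring and which carries a methyl ester, differed from amphetamine by 0.00 ± 0.17 (-0.34 to 0.35) and from methamphetamine by -0.01 ± 0.17 (-0.36 to 0.33). Those intervals hold differences of up to 0.36 in size. Over all genes tested in this comparison, 0.363% passed an adjusted p under 0.05.

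In the striatum of the naive cohort the direction was the opposite, and the size depended on the drug and dose. Against saline at 405, 432, 314, 427 and 345, amphetamine at 1.25 mg/kg gave 318, 319 and 301 and at 5 mg/kg 234, 342 and 343. Methamphetamine at 1.25 mg/kg gave 250, 234 and 197, and at 5 mg/kg 346, 332 and 470. Methylphenidate at 5 mg/kg gave 340, 316 and 255. Of the 15 stimulant arrays, 14 were below the saline mean, 6 were below the lowest saline array, and 1, methamphetamine 5 mg/kg replicate 3, was above the highest. The mean of the 5 stimulant groups was lower than saline by -0.35 ± 0.11 (log2, 95% interval -0.56 to -0.13), or 0.79-fold. It was -0.35 within each BioB array set and -0.36 without the array of cortical profile. In this comparison 0.0938% of all genes tested passed an adjusted p under 0.05, and 0.246% without that array.

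Methamphetamine at 1.25 mg/kg had the lowest naive striatal Msx1, with a difference from saline of -0.76 ± 0.15 (95% interval -1.06 to -0.45) and no array above the lowest saline array. The array of cortical profile, which read 250, was the highest of the 3, and without it the difference was -0.83. Methamphetamine at 5 mg/kg was close to saline, at -0.01 ± 0.15 (-0.32 to 0.29). The higher dose exceeded the lower by 0.74 ± 0.17 (0.40 to 1.09), and the arrays of the 2 doses did not overlap. For amphetamine the 2 doses were close, with a difference of -0.05 ± 0.17 (5 minus 1.25 mg/kg, -0.39 to 0.29). At 1.25 mg/kg methamphetamine was below amphetamine by -0.47 ± 0.17 (-0.81 to -0.13). At 5 mg/kg methamphetamine minus amphetamine was 0.33 ± 0.17 (-0.02 to 0.67), methylphenidate minus amphetamine 0.00 ± 0.17 (-0.34 to 0.34), and methylphenidate minus methamphetamine -0.33 ± 0.17 (-0.67 to 0.02). The 2 methamphetamine groups lie in the higher BioB set, while amphetamine and methylphenidate at 5 mg/kg lie in the lower one. With the array set as a block the 3 differences at 5 mg/kg were 0.34, 0.00 and -0.34. Single arrays moved them: methamphetamine minus amphetamine was 0.14 without amphetamine replicate 1 and 0.17 without methamphetamine replicate 3. Methylphenidate minus methamphetamine was -0.17 without methamphetamine replicate 3 and -0.21 without methylphenidate replicate 3. Against saline, amphetamine at 5 mg/kg was at -0.34 and at -0.15 without its replicate 1, and methylphenidate was at -0.34 and at -0.22 without its replicate 3.

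**Figure D2:**
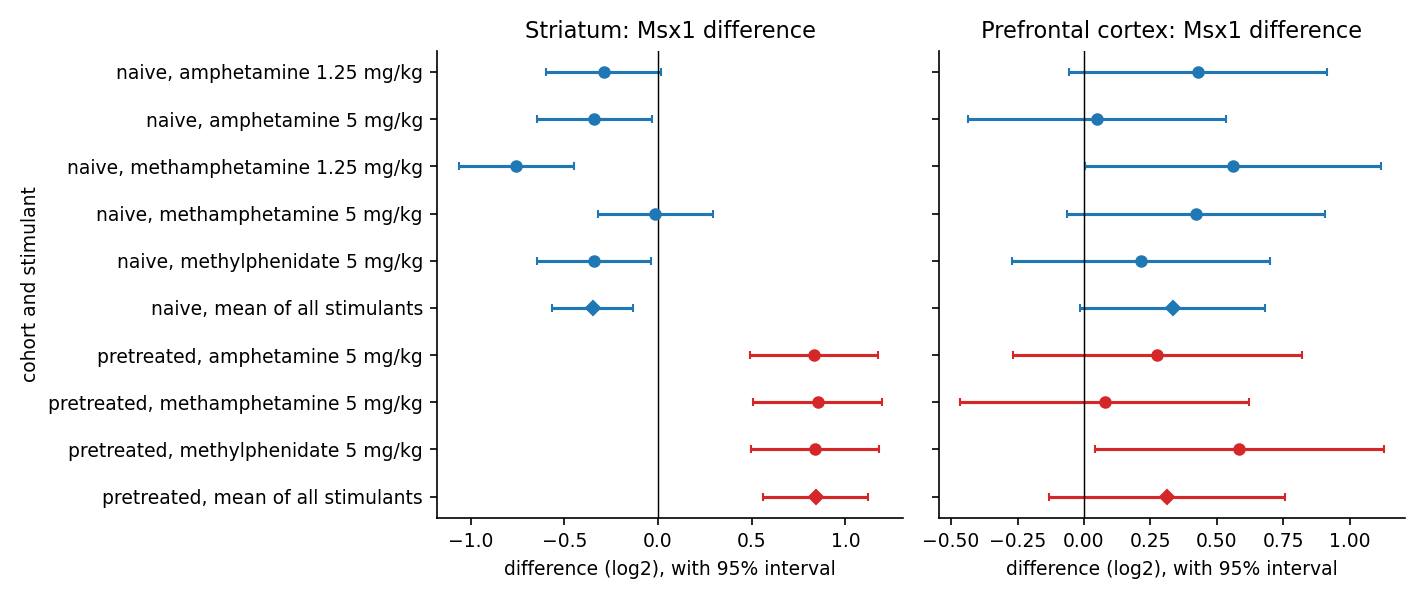
Msx1 difference between each stimulant group and its cohort's saline group (horizontal axis, log2; bars are 95% intervals) for the naive cohort (blue) and the pretreated cohort (red). Diamonds are the mean over stimulant groups: -0.35 and 0.84 in striatum, 0.33 and 0.31 in cortex.

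The opposite striatal directions went with saline groups that differed from each other. Msx1 in saline rats of the pretreated cohort was below that in naive saline rats by -0.76 ± 0.15 (log2, 95% interval -1.07 to -0.45), and no array of the first group reached the lowest of the second. At 5 mg/kg, the dose common to the cohorts, the stimulant difference was larger in the pretreated cohort by 1.07 ± 0.18 (0.71 to 1.44). The stimulant groups themselves were close to naive saline: pretreated amphetamine, methamphetamine and methylphenidate had means of 8.65, 8.67 and 8.65 and naive saline 8.58. Leaving out any 1 array moved the saline difference between -0.83 and -0.72 and the cohort difference in stimulant effect between 1.01 and 1.14. The share of tested genes that differed between the saline groups of the cohorts in striatum was 3.13%, and it was 1.86% in cortex, where Msx1 differed by 0.17 ± 0.24 (-0.32 to 0.65).

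Ordered by mean, the 10 striatal groups fell into 3 runs of close means, with some overlap of single arrays. The upper run held the 3 pretreated stimulant groups, naive saline and naive methamphetamine 5 mg/kg, from 8.67 to 8.56. The middle run held naive amphetamine 1.25 mg/kg at 8.29 ± 0.05 (SD, n = 3), naive amphetamine 5 mg/kg at 8.24 ± 0.32 (n = 3) and naive methylphenidate 5 mg/kg at 8.23 ± 0.22 (n = 3). The lower run held naive methamphetamine 1.25 mg/kg at 7.82 ± 0.17 (n = 3) and the saline group of the pretreated cohort at 7.81 ± 0.08 (n = 3). The gaps between the runs were 0.28 and 0.42, above the residual SD of 0.20 between arrays of a group, and neighbours within a run differed by 0.07 or less. Single arrays crossed both gaps. The lowest naive saline array, at 8.3, was below the highest naive amphetamine 5 mg/kg array at 8.42. The lowest array of that amphetamine group, at 7.87, was below the highest naive methamphetamine 1.25 mg/kg array at 7.96. That last array is the one of cortical profile, which the group mean of 7.82 includes, and the others of its group read 7.87 and 7.63. The highest saline array of the pretreated cohort, at 7.9, was also above the lowest amphetamine array.

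In cortex the Msx1 probe set was dim. Its mean was in the 38.23 percentile of genes there, under the signal filter that removes the lowest 40%, so cortical values come from a fit without that filter. Naive saline arrays read 124, 171, 133, 136 and 129. Naive amphetamine gave 204, 137 and 228 at 1.25 mg/kg and 124, 187 and 124 at 5 mg/kg. Naive methamphetamine gave 204 and 202 at 1.25 mg/kg and 162, 233 and 165 at 5 mg/kg, and methylphenidate gave 114, 165 and 216. Stimulant and saline arrays overlapped, with 7 of 14 stimulant arrays above the highest saline array and 1 below the lowest. The mean difference was 0.33 ± 0.17 (log2, 95% interval -0.01 to 0.68). It was 0.43 within the higher BioB set and 0.19 within the lower one. Against saline, methamphetamine at 1.25 mg/kg, with 2 arrays, was at 0.56 ± 0.27 (0.004 to 1.12), the only single interval above 0. At 5 mg/kg it was at 0.42 ± 0.24. Amphetamine was at 0.43 ± 0.24 at 1.25 mg/kg and 0.05 ± 0.24 at 5 mg/kg, and methylphenidate at 0.21 ± 0.24. The 5 mg/kg dose minus 1.25 mg/kg was -0.38 ± 0.27 (-0.92 to 0.16) for amphetamine and -0.14 ± 0.30 (-0.75 to 0.47) for methamphetamine.

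In the cortex of the pretreated cohort, saline arrays read 179, 166 and 123, amphetamine 156, 158 and 265, methamphetamine 171, 148 and 171, and methylphenidate 203, 173 and 351. Of the 9 stimulant arrays, 3 were above the highest saline array: amphetamine replicate 3 and methylphenidate replicates 1 and 3. The mean difference was 0.31 ± 0.22 (-0.13 to 0.76), and methylphenidate alone was at 0.59 ± 0.27 (0.04 to 1.13). Amphetamine was at 0.28 and methamphetamine at 0.08, each ± 0.27. Without methylphenidate replicate 3, at 351, the methylphenidate difference was 0.28 ± 0.27, and without saline replicate 3, at 123, the mean difference was 0.15 ± 0.25. The stimulant difference changed between cohorts by 0.09 ± 0.28 (-0.49 to 0.66). The array with the highest cortical Msx1, methylphenidate replicate 3 at 351, also had the highest cortical signal of Ttr, the transthyretin gene that marks choroid plexus, at 13.39 (log2). The array with the next highest Ttr, naive methamphetamine 5 mg/kg replicate 1 at 13.14, had an Msx1 intensity of 162, within the range of the other cortical arrays. The part of choroid plexus in cortical Msx1 was not tested. No neighbouring groups in the cortical order differed by more than the residual SD of 0.34.

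The striatal difference was more negative than the cortical one in the naive cohort, by -0.68 ± 0.20 (log2, 95% interval -1.08 to -0.28). In the pretreated cohort it was more positive by 0.53 ± 0.26 (0.01 to 1.04).

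Msx2, the closest relative of Msx1 and another BMP-responsive repressor, was dim in both regions and passed neither filter. Its striatal signals ranged from 3.69 to 5.81 (log2) over the 32 arrays. Its stimulant minus saline differences in striatum were -0.32 ± 0.25 in the naive cohort and 0.32 ± 0.32 in the pretreated cohort. Neither difference was over 2 SE, and the naive one was -0.37 ± 0.25 without the array of cortical profile. Msx3 had no probe set of its own symbol.

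The BMP pathway was followed with 5 lists of ligands, receptors, SMAD mediators, antagonists and target genes, 47 genes besides Msx1, of which 42 had a probe set and 27 passed the striatal filter. In the pretreated striatum 1 of the 27 passed the test over all genes, against 0.363% of all genes tested, and 3 passed without the array of cortical profile, a naive array that enters only the estimate of spread here. Bmp2 and Nbl1 were the further genes. The median difference of the 27 was 0.0531, and that of all genes -0.0124. In the naive striatum 0 of 27 passed by limma, against 0.0938% of all genes at an adjusted p under 0.05, and the median was 0.0188 against 0.00238. At an unadjusted p under 0.05 there were 2 of the 27. The share of all genes at that unadjusted level is not given, here or for other lists, so such counts have no background beside them.

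The gene that passed was Smad7, an inhibitory SMAD that blocks receptor signalling and is itself a target of it. It fell by 0.66 ± 0.15 in the pretreated striatum (log2, limma adjusted p = 0.0488). Its saline arrays read 9.11, 9.38 and 9.29 (log2), and its stimulant arrays 8.11 to 8.95. The call was lost with quantile normalization, without the signal filter, and in 8 of the 12 fits that left out 1 array, including each saline array. In the naive striatum Smad7 was at 0.03 ± 0.12. The other members of the pathway with fixed places in the description did not pass in either cohort. Among ligands, Bmp4 was at -0.43 ± 0.16 in the naive and -0.14 ± 0.21 in the pretreated striatum, Bmp6 at 0.03 ± 0.12 and 0.40 ± 0.15, and Bmp7, dim in striatum, at 0.28 ± 0.23 and 0.56 ± 0.30. The receptors Bmpr1a and Bmpr2 were at -0.27 ± 0.09 and 0.14 ± 0.09 in the naive striatum and at 0.06 ± 0.12 and -0.04 ± 0.11 in the pretreated one.

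The signal transducers Smad1, Smad4 and Smad5 were between -0.14 and 0.03 in both striatal comparisons, each within 2 SE of 0. Noggin (Nog), a secreted antagonist, was at 0.09 ± 0.19 and -0.24 ± 0.24. Bambi, a decoy receptor that BMP signalling itself raises, was under the filter and at -0.01 ± 0.20 and 0.84 ± 0.26, so its pretreated difference was as large as that of Msx1 without a test over all genes. The Id genes, which encode inhibitors of helix-loop-helix factors, were at 0.12 ± 0.16, -0.15 ± 0.11, -0.13 ± 0.13 and -0.16 ± 0.12 for Id1, Id2, Id3 and Id4 in the naive striatum. In the pretreated striatum they were at 0.40 ± 0.20, 0.08 ± 0.14, 0.15 ± 0.17 and 0.27 ± 0.16. Without the array of cortical profile the naive values of Bmp7, Nog and Id4 were 0.16 ± 0.19, -0.02 ± 0.14 and -0.09 ± 0.10.

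In cortex 0 of 26 pathway genes passed in the naive cohort by limma, against 0.0586% of all genes at an adjusted p under 0.05. An unadjusted p under 0.05 was seen for 2 of the 26. In the pretreated cohort Vwc2, a secreted BMP antagonist of brain, rose by 0.77 ± 0.15 (limma adjusted p = 0.037) as 1 of 26, against 0.0703% of all genes. That call was lost with quantile normalization, without the filter and in 10 of 12 fits that left out 1 array.

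Between the saline groups of the cohorts in striatum, 3 of the 27 pathway genes passed, against 3.13% of all genes. The antagonist Nbl1 was lower in the pretreated cohort by -0.82 ± 0.19 (limma adjusted p = 0.0187), and Id3 by -0.67 ± 0.19 (adjusted p = 0.0481). The activin receptor gene Acvr2a was higher, by 0.69 ± 0.14 (adjusted p = 0.00772). The calls of Nbl1 and Acvr2a were each lost in 2 of 8 fits that left out 1 array, those without saline replicate 1 or 3 of the pretreated cohort. That of Id3 was lost in 6 of 8 such fits, 3 without a naive and 3 without a pretreated-cohort array, and without the filter.

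Between regions the pathway differed in both directions. In naive saline rats 10 of 25 tested members were higher in striatum and 6 lower, against 21.2% and 19.2% of all genes. Higher were Hey1 by 1.25 ± 0.10 (limma adjusted p = 6.27e-15), Id4 by 0.93 ± 0.13 (adjusted p = 3.38e-08), Id3, Bmpr1a, Bmp6, Smad4, Smad5, Smurf2 and, from the antagonist list, Fstl1 and Twsg1. Lower were, from the antagonist list, Bmper by -2.52 ± 0.28 (adjusted p = 1.72e-10), Nog by -1.5 ± 0.20 (adjusted p = 2.41e-08), Nbl1 and Vwc2, as well as Smad9 and Id2. The 6 tested members of the antagonist list thus went both ways, 4 lower and 2 higher. Of those under the filter, Fst and Sostdc1 were at 1.01 ± 0.21 and 1.08 ± 0.49, and Chrd and Grem1 at -1.33 ± 0.23 and -1.92 ± 0.23. In the saline rats of the pretreated cohort 6 were higher and 5 lower, against 13% and 14% of all genes. The filter here takes the mean over both regions. Bmper, with means of 6.65 in striatum and 8.89 in cortex, was tested only through its cortical signal.

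**Figure D3:**
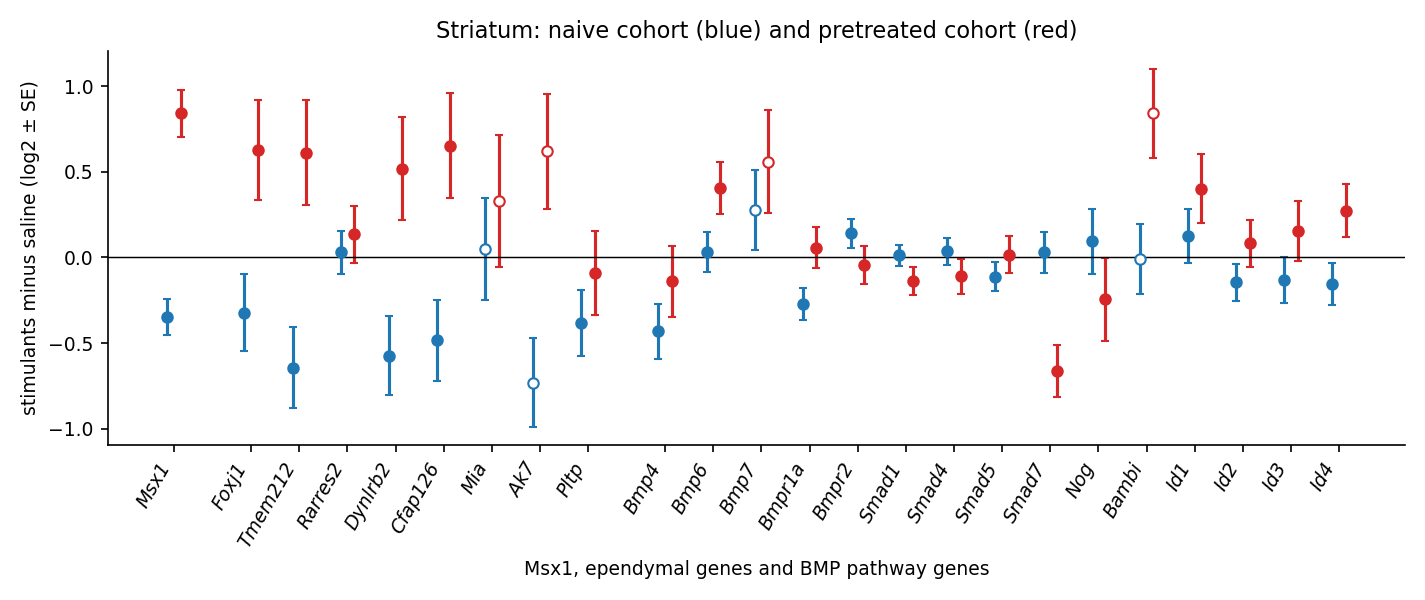
Stimulant minus saline differences in striatum (vertical axis, log2 ± SE) for Msx1, 8 ependymal genes and 15 BMP pathway genes (horizontal axis), in the naive (blue) and pretreated (red) cohort. Open symbols are genes under the signal filter. Tmem212 was at -0.64 and 0.61 and Dynlrb2 at -0.57 and 0.52, next to -0.35 and 0.84 for Msx1 (without the array of cortical profile the naive values of Tmem212 and Dynlrb2 were -0.48 and -0.42), while Smad1 was at 0.01 and -0.14.

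Genes whose signal followed that of Msx1 over the 32 striatal arrays were ranked by Pearson correlation as a description. The arrays share their groups, cohorts and scaling, and the genes were picked for the correlation. Among the 8529 other genes above the filter, the 10 with the highest correlation lay between r = 0.567 and r = 0.641. They were Ppp1r36, a protein phosphatase regulatory subunit (0.641), Sft2d2, a vesicle-transport protein (0.628), Cuedc2 (0.592), Spata6, needed for the sperm neck (0.581), Mlf1 (0.572), Erich2 (0.572), the surface glycoprotein Cd24 (0.572), LOC100910558 (0.570), the glial calcium-binding protein S100b (0.570) and Trappc6a (0.567). In all, 50 genes were above r = 0.5 and 48 below r = -0.5, so positive and negative followers were about equally many. The 5 most opposed genes were Leo1, a PAF1 complex subunit (-0.661), the endosomal co-chaperone Dnajc13 (-0.656), Ttc9 (-0.647), the death receptor Tnfrsf21 (-0.612) and Fam184a (-0.603).

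Ppp1r36 showed the pattern of the group means. It differed between stimulants and saline by -0.129 in the naive and 0.541 in the pretreated striatum (log2), and its correlation with Msx1 over the 10 group means was 0.904. Within groups, after each group's mean was subtracted, that correlation was 0.173. Sft2d2 kept more of its correlation within groups, at 0.501. Cuedc2, Spata6, Mlf1 and Erich2 were between 0.0146 and 0.112 after the same step, so they followed Msx1 between groups rather than from array to array. The 5 genes with the highest within-group correlation, Tmem223 (0.646), Mplkip (0.586), Gnptab (0.578), Gdap2 (0.575) and Anxa4 (0.545), were other genes, and over all arrays their correlations lay between -0.119 and 0.461.

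Without the signal filter, an addition made after the data were seen, the highest correlation was that of Tekt2, which encodes a tektin filament protein of motile cilia and sperm tails, at r = 0.748. Its correlation with Msx1 was 0.631 over the 20 naive arrays and 0.875 over the 12 pretreated-cohort arrays, 0.984 over the group means and -0.0294 within groups. In the pretreated cohort the saline arrays read 5.82, 5.62 and 5.69 (log2) and the stimulant arrays 6.44 to 7.36. In the naive cohort saline read 6.61 to 7.26 and stimulants 4.89 to 7.2, where 4.89 is the array of cortical profile and the next lowest array read 5.82. As for Msx1, the means of naive saline and of the pretreated stimulants were high, from 6.96 to 7.02, and those of naive methamphetamine 1.25 mg/kg and of the pretreated cohort's saline low, at 5.64 and 5.71. The close groups between them ran in the reverse order, with naive methylphenidate at 6.53, amphetamine 5 mg/kg at 6.49 and amphetamine 1.25 mg/kg at 6.44. The stimulant differences of Tekt2 were -0.625 (-0.55 without the array of cortical profile) and 1.28, and the correlation without that array was 0.777. Its saline difference between striatum and cortex was 2.5 in the naive cohort and 0.409 in the pretreated cohort. Over the cortical arrays its correlation with Msx1 was 0.0696. Tekt2 had a mean signal of 6.58 in striatum, under the filter.

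The next genes in that ranking were Krt8 (0.689), an epithelial keratin, Akap14 (0.617), an anchoring protein of cilia, Calml4 (0.613), Cfap45 (0.601), a cilium and flagellum protein, Pih1d2 (0.598), a dynein assembly factor, Krt18 (0.597), the partner of Krt8, and Cdkn3 (0.597). Of these, Calml4 held its correlation within groups, at 0.596. The others were between -0.151 and 0.245 there.

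**Figure D4:**
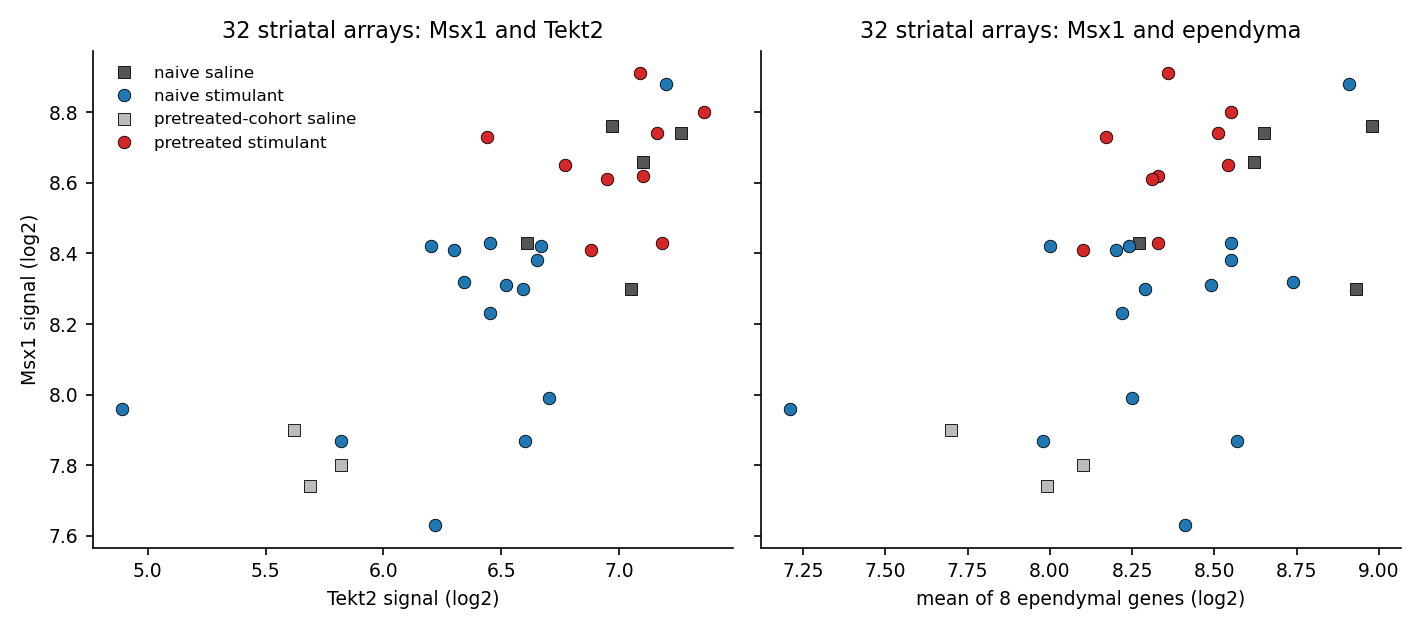
Msx1 signal (vertical axis, log2) against Tekt2 (left, log2) and the mean of 8 ependymal genes (right, log2) on the 32 striatal arrays. Squares are saline and circles stimulants. The saline arrays of the pretreated cohort lie at the lower left of both panels, and the pretreated stimulant arrays have Tekt2 signals from 6.44 to 7.36.

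Motile cilia in the brain belong to ependymal cells, which line the ventricles, and the striatum borders the lateral ventricle. The list of ependymal markers held 12 genes, of which 8 had a probe set and 6 passed the striatal filter. Their median correlation with Msx1 over the 8 genes was 0.406, the highest of the lists with at least 4 genes on the array, against -0.00262 over all genes. It was 0.056 within groups. The mean of the 8 genes and Msx1 had r = 0.497 (Spearman's rho 0.488) over the 32 striatal arrays 0.529 without the 2 arrays farthest from the median Msx1 and 0.474 without the array of cortical profile. The median over the 8 genes without that array was 0.381. In cortex r was 0.185.

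The ependymal genes Tmem212, Dynlrb2 and Cfap126, which serve motile cilia, were at -0.64 ± 0.24, -0.57 ± 0.23 and -0.48 ± 0.24 in the naive striatum and at 0.61 ± 0.31, 0.52 ± 0.30 and 0.65 ± 0.31 in the pretreated striatum. Foxj1, the transcription factor that drives motile cilia, was at -0.32 ± 0.23 and 0.63 ± 0.29. The array of cortical profile read low for these genes, with Tmem212 at 6.56 against 9.09 and 8.87 on the other arrays of its group. Without it Tmem212, Dynlrb2, Cfap126 and Foxj1 were at -0.48 ± 0.14, -0.42 ± 0.15, -0.32 ± 0.14 and -0.19 ± 0.16 in the naive striatum. Some members did not turn direction: Rarres2 was at 0.03 ± 0.13 and 0.13 ± 0.17, Pltp at -0.38 ± 0.19 and -0.09 ± 0.25, and Mia, under the filter, at 0.05 ± 0.30 and 0.33 ± 0.39. By limma 0 of the 6 tested genes passed in either cohort, with 2 at an unadjusted p under 0.05 in each, a level without a share of all genes. Without the array of cortical profile 0 passed in the naive striatum, with 4 at that level and a median of -0.361. With it the medians were -0.434 and 0.565, against 0.00238 and -0.0124 over all genes. The difference between the cohorts' stimulant effects at 5 mg/kg had a median of 0.925 over the 6 genes. By limma 0 of 6 passed there, against 0.0586% of all genes at an adjusted p under 0.05. An unadjusted p under 0.05 was seen for 4 of the 6. The summed log2 signal of the 8 genes ranged from 66.2 to 71.8 on naive saline arrays and from 57.6 to 71.3 on naive stimulant arrays, where 57.6 is the array of cortical profile and the next lowest sum is 63.8. It ranged from 61.6 to 64.8 on saline arrays of the pretreated cohort and from 64.8 to 68.4 on its stimulant arrays. None of the 8 was at 0 on any striatal array.

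Between the saline groups of the cohorts, Foxj1 was lower in the pretreated cohort by -1.25 ± 0.32 (limma adjusted p = 0.0292), 1 of 6 tested, against 3.13% of all genes, and the list's median was -0.779. The call was lost in 6 of 8 fits that left out 1 array, 3 of them without naive saline replicates 1, 2 or 3 and 3 without the other group's arrays. Without the array of cortical profile Tmem212 and Cfap126 passed as well. In naive saline rats 3 of 4 tested ependymal genes were higher in striatum than in cortex, against 21.2% of all genes: Dynlrb2 by 2.73 ± 0.24 (limma adjusted p = 3.74e-13), Tmem212 by 2.96 ± 0.28 (adjusted p = 3.61e-12) and Rarres2 by 0.56 ± 0.16 (adjusted p = 0.00429). Pltp, the remaining one, was at 0.44 ± 0.24 (adjusted p = 0.135). The filter of the region comparisons takes the mean over the arrays of both regions. Tmem212, with means of 8.98 in striatum and 6.39 in cortex, was tested only through its striatal signal. Its place in that count is therefore in part set by the filter. The part of ependymal cells in the Msx1 differences was not tested.

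A list of 39 axoneme genes, taken by symbol (Cfap, Dnah, Dnai, Drc, Rsph and Tekt genes) after the data were seen, lay mostly on the same sides of 0 as Msx1. Its median correlation with Msx1 was 0.349, with 33 of 39 above 0, against 7046 of 14217 over all genes. Only 17 of the 39 passed the striatal filter, with a median correlation of 0.263, so counts over the 39 include many dim genes. The list holds Tekt2 and Cfap45, named above for their correlation, and Cfap126 of the ependymal list, so it is not separate from those results. In the naive striatum 32 of 39 had a difference below 0, with a median of -0.242 (33 of 39 and -0.178 without the array of cortical profile), and in the pretreated striatum 32 had one above 0, with a median of 0.294. Over all 14217 genes 7486 were below 0 in the naive and 7284 above 0 in the pretreated striatum, with medians of -0.00963 and 0.00722. Within groups the median correlation was 0.0252.

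**Figure D5:**
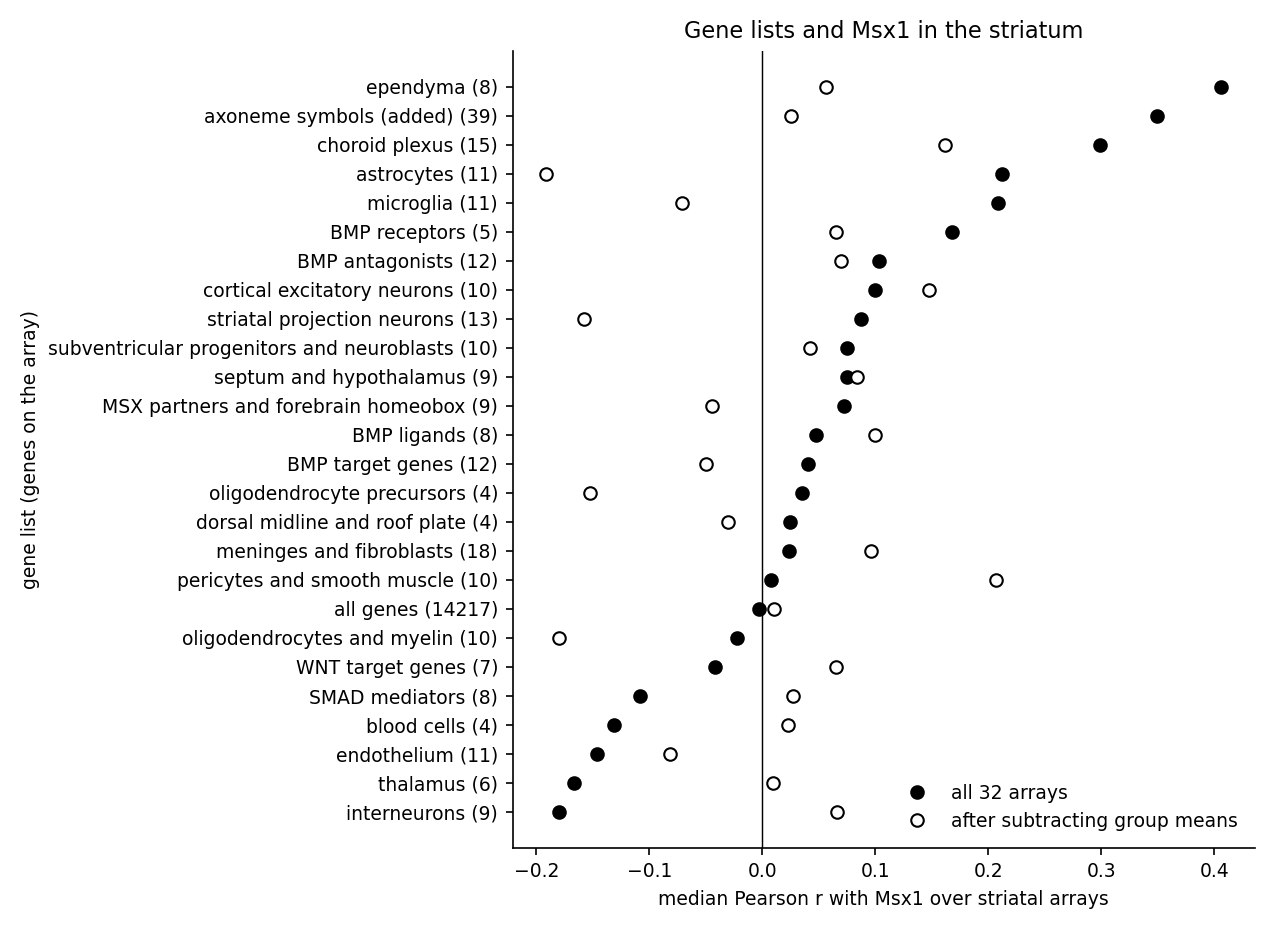
Median Pearson correlation with Msx1 over the striatal arrays (horizontal axis) for each gene list with at least 4 genes on the array (vertical axis, number of genes in brackets), over all 32 arrays (filled) and after subtracting group means (open). Ependyma is highest at 0.406, and its value is 0.056 once group means are removed.

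Choroid plexus, the secretory epithelium of the ventricles, gave a median correlation of 0.299 over 15 genes, 0.225 without the array of cortical profile and 0.162 within groups. In cortex the median was 0.316, the highest of the lists, against 0.109 for ependyma. In the naive striatum 11 of the 15 were below 0, with a median of -0.193 (11 and -0.154 without that array). In the pretreated striatum 13 were above 0, with a median of 0.42. Over all 14217 genes 7486 were below 0 in the naive and 7284 above 0 in the pretreated striatum. Ttr was at -0.20 ± 0.46 in the naive and 1.61 ± 0.59 in the pretreated striatum (limma adjusted p = 0.918 and 0.186). Folr1, a folate receptor of that epithelium, was under the filter and at -0.27 ± 0.27 and 0.76 ± 0.34. Without the array of cortical profile the naive values of Ttr and Folr1 were -0.12 ± 0.45 and -0.14 ± 0.22. Kl, another choroid plexus gene, had mean log2 signals between 2.61 and 3.44 in the 4 striatal sets compared, near the bottom of the scale. By limma 0 of 3 tested genes of the list passed in either striatal comparison. At an unadjusted p under 0.05, a level without a share of all genes, there were 0 and 1. The summed log2 signal of the 15 genes was 91.6 to 100.8 on naive saline arrays, 89.1 to 104.0 on naive stimulant arrays, 92.0 to 99.0 on the pretreated cohort's saline arrays and 95 to 118.3 on its stimulant arrays. The sum of 118.3 is pretreated amphetamine replicate 2, with a list mean of 7.89 where the next highest striatal array had 7.14. That array had the highest striatal Ttr, at 14.27 (log2), and the highest striatal Msx1 intensity, at 480. Replicate 3 of its group had the next highest Ttr, at 13.37, and an Msx1 intensity of 341. The part of choroid plexus in the striatal Msx1 differences was not tested.

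Astrocyte genes lay on the same sides of 0 as Msx1 with smaller differences. So did most choroid plexus genes, given above, and most microglia and oligodendrocyte precursor genes, whose values follow below. In the naive striatum 10 of 11 were below 0, with a median of -0.0967, and in the pretreated striatum 11 of 11 were above 0, with a median of 0.226. Over all 14217 genes 7486 were below 0 in the naive and 7284 above 0 in the pretreated striatum. By limma 0 of 11 passed in either comparison, with 3 and 5 at an unadjusted p under 0.05. No share of all genes is given at that unadjusted level. Between the saline groups of the cohorts in striatum 2 of 11 passed, against 3.13% of all genes: Gfap, the astrocyte filament gene, was lower in the pretreated cohort by -0.77 ± 0.19 (limma adjusted p = 0.0213) and Ntsr2 by -0.55 ± 0.15 (adjusted p = 0.0452). The call of Gfap was lost in 4 of 8 fits that left out 1 array, those without naive saline replicate 2 or 3 or pretreated-cohort saline replicate 1 or 3. That of Ntsr2 was lost in 6 of 8, all but those without naive saline replicate 4 or 5. The median correlation of the list with Msx1 was 0.212 over all arrays, 0.492 in the pretreated cohort, -0.0973 in the naive cohort and -0.191 within groups. The summed log2 signal of the 11 genes was 130.9 to 133.3 on naive saline arrays, 128.3 to 132.6 on naive stimulant arrays, 127.5 to 129.9 on the pretreated cohort's saline arrays and 130.5 to 132.8 on its stimulant arrays. The part of astrocytes in the Msx1 differences was not tested.

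Microglia genes had a median correlation of 0.209 over all arrays and -0.0711 within groups. In the naive striatum 8 of 11 were below 0 and in the pretreated one 10 of 11 above 0, with medians of -0.071 and 0.236. For oligodendrocyte precursors the counts were 3 of 4 and 4 of 4, with medians of -0.0783 and 0.284. Of the oligodendrocyte and myelin genes 10 of 10 were below 0 in the naive striatum and 2 of 10 above 0 in the pretreated one, with medians of -0.295 and -0.223. Pericyte and smooth muscle genes were at 0.00816 over all arrays and had the highest within-group median of the cell type lists, 0.207. The median over all arrays was 0.0875 for striatal projection neurons (-0.347 without the array of cortical profile), 0.1 for cortical excitatory neurons (0.236 without it and 0.148 within groups), 0.0234 for meninges and fibroblasts, and -0.146 for endothelium. Drd1 and Drd2 were at -0.05 ± 0.28 and -0.26 ± 0.37 in the naive striatum and at -0.32 ± 0.36 and -0.30 ± 0.48 in the pretreated one. The spread is pooled over all striatal groups, so the array of cortical profile widens the pretreated errors too. In the pretreated cohort Drd2 read 11.63, 11.64 and 11.63 on saline arrays and 11.21 to 11.42 on stimulant arrays. Of the 13 projection neuron genes 0 were above 0 there, with a median of -0.284, against 7284 of 14217 genes over all. Slc17a7, which marks cortical neurons, was at 0.58 ± 0.42 and 1.18 ± 0.54 and Neurod6, under the filter, at 0.66 ± 0.39 and 0.97 ± 0.50, so both were above 0 in both cohorts. The array of cortical profile read 7.6 for Drd2 and 10.78 for Slc17a7, against 12.01 and 12.18 and 8.14 and 6.15 on the other arrays of its group. Without it the naive values of Drd1, Drd2, Slc17a7 and Neurod6 were 0.18 ± 0.07, 0.03 ± 0.09, 0.34 ± 0.31 and 0.45 ± 0.30. Col1a1 of fibroblasts was at -0.24 ± 0.28 and -0.40 ± 0.36, Acta2 of smooth muscle at 0.02 ± 0.29 and 0.17 ± 0.38, Slc13a4 of meninges at -0.02 ± 0.23 and 0.26 ± 0.29, and Cldn5 of endothelium at 0.21 ± 0.21 and 0.03 ± 0.27. None of those tested passed.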

How the data were processed

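RNA of 63 rat striatal and prefrontal samples was read on 1 array design. The authors deposited linear MAS5 intensities, per the submitters' processing notes, which give no version; 18232 values under 1 were set to 1 before log2 was taken. The table gives no detection calls, and the number of arrays limits the precision. Of 31099 probe sets, 20832 had 1 symbol, 436 several and 9831 none. The brightest probe set stood for each of 14218 genes. The dimmest 40% by mean over the arrays of the region or regions fitted were left out, which leaves 8530 per fit. limma 3.58.1 in R 4.3.3 fitted all arrays of a region, or of both regions for region comparisons (lmFit, contrasts, eBayes with an intensity trend), with Benjamini-Hochberg adjustment over all genes tested and a threshold of 0.05. The fit was tested on simulated data. Msx1 and the 25 gene lists were chosen with earlier results of these data known. Named genes are Msx1, its family, the 10 highest and 5 lowest correlations, the 5 highest within groups, up to 4 list members passing per comparison, and a fixed set of pathway and marker genes. The labels do not say whether arrays that share a replicate number share an animal, and the fits treat arrays as independent. Alternatives covered normalization, offset, filter, trend, array set, replicate block and each array left out.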

Additional observations from a re-analysis of the deposited data

Results flagged for a closer look

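Naive saline replicate 2 in prefrontal cortex had an Msx1 signal of 7.42 (log2), set apart from the other 4 arrays of its group, which read 6.95 to 7.08. Naive saline replicate 5 in the same group had an Msx2 signal of 3.79, below the other 4 arrays at 5.39 to 5.67. Both were found among 86 sets, each 1 gene in 1 group, tested for a sample far from the rest, where chance alone flags about 1 in 20. Only the naive saline groups of both regions had enough arrays for this test, so the other groups were not screened. Without replicate 2 the Msx1 difference between naive stimulants and saline in cortex was 0.41, against 0.33 with it.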

How the results depend on the processing

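All 388 Msx1 values under other settings and all 431 with 1 array left out stayed within 1 residual SD of the reported ones, which is wide next to the smaller differences. Some differences from saline, between stimulants and between cohorts crossed 0. With quantile normalization naive methamphetamine 5 mg/kg minus saline in striatum was 0.017. With 1 array left out, the cortical cohort difference in stimulant effect ranged from -0.08 to 0.19, and naive cortical methylphenidate minus saline fell from 0.21 to -0.0034 without its replicate 3. The replicate block gave 0.84 in the pretreated and -0.34 in the naive striatum, 0.31 in both cortical comparisons, -0.76 between the saline groups and 1.07 for the cohort difference. The 60% filter leaves Msx1 out, as does the 40% filter in cortex, so those settings gave no value.

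Counts of list genes that passed were less stable. The BMP pathway count of 1 in the pretreated striatum and of 1 in the pretreated cortex became 0 with quantile normalization and 0 without the filter, and ranged from 0 to 2 and from 0 to 1 with 1 array left out. Without the array of cortical profile the striatal count was 3, and ependyma passed 1 gene for the cohort difference and 3 between saline groups. With the replicate block the BMP counts were 2 in the naive striatum, 3 for the cohort difference and 5 between saline groups, and the ependyma counts 1 for the cohort difference and 2 between saline groups. With the array set as a block the counts between saline groups were 5 and 2. Leaving out 1 array gave 0 to 4 BMP and 0 to 1 ependyma genes there. Without the filter all 8 ependyma, 15 choroid plexus and 42 BMP genes with a probe set were tested. Between regions 6 and 5 ependyma genes and 4 and 2 choroid plexus genes then passed in the naive and pretreated cohorts, and 19 BMP genes in the pretreated cohort. Dim cortical Msx1 limits what can be seen there. Other causes of these changes were not tested. The replicate block moved no other of these counts by over 1.5 times. The share of all genes that passed under these other settings is not given, so the counts have no background beside them. The same holds for the counts given earlier without the array of cortical profile in the pretreated striatum and between saline groups. In the main fit 40.4% and 27% of all genes differed between regions in the naive and pretreated cohorts.

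Shared replicate numbers were checked by the correlation of deviations from group means. Within a region, same-numbered arrays of different groups had medians between -0.0249 and 0.194, and 7 of 40, 12 of 18, 10 of 45 and 7 of 18 pairs were above 0.1 in the naive and pretreated cortex and the naive and pretreated striatum. Across regions the same number of a group had medians of 0.283 in the naive and 0.155 in the pretreated cohort, against -0.0806 and -0.113 for other numbers, with 14 of 19 and 9 of 12 pairs above 0.1. For 13 of 19 and 10 of 12 cortical arrays the best match was the striatal array of the same number, a hint from the data that these arrays may be pairs. With such arrays as random pairs, chosen after the data were seen, the regional differences were 1.47 ± 0.16 and 0.55 ± 0.21, and the regional differences in stimulant effect -0.68 ± 0.19 and 0.53 ± 0.24.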

Other observations

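Gene lists tied to MSX function in development had median correlations with Msx1 near 0 in striatum, with members on both sides. Over 9 genes of homeobox partners and forebrain homeobox factors the median correlation with Msx1 on the 32 arrays was 0.072 (-0.125 without the array of cortical profile), over 7 WNT target genes it was -0.0418, and over 4 genes of the dorsal midline it was 0.0248, against -0.00262 over all genes. In the homeobox list single correlations ranged from -0.519 for Six3, which was dim, to 0.555 for Pax6, and that of Lhx2 was 0.381. Pax6 was at -0.14 ± 0.11 in the naive and 0.57 ± 0.15 in the pretreated striatum (limma adjusted p = 0.691 and 0.0643), and Lhx2 at -0.17 ± 0.11 and 0.53 ± 0.15 (adjusted p = 0.614 and 0.0872). These members were singled out after their values were seen. By limma 0 of 6 tested homeobox genes passed in the naive or the pretreated striatum, with 1 and 2 at an unadjusted p under 0.05. No share of all genes is given at that unadjusted level. Of 3 tested WNT targets 0 passed, with 1 and 0 at that level, and no dorsal midline gene was bright enough to be tested. Subventricular progenitor and neuroblast genes, from the zone next to the ependyma, had a median correlation of 0.0754 over 10 genes. Between regions in naive saline rats, Meis2, a homeobox gene of striatal neurons, was higher in striatum and Lhx2, a cortical one, lower, by 1.04 ± 0.11 (limma adjusted p = 1.92e-11) and -0.49 ± 0.13 (adjusted p = 0.00144) on the log2 scale.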
